A study of Mus musculus with 2 samples.

Results

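The genes described here encode clathrin, the dynamins and the adaptors that work beside them at the endocytic pit. They are 10 of the 55536 genes in the deposited tables, and were taken by symbol: the clathrin chains Clta, Cltb and Cltc, the dynamins Dnm1, Dnm2 and Dnm3, the amphiphysins Amph and Bin1, the phosphatase Synj1 and the adaptor Picalm. Their RNA was measured in the left cerebral cortex of 2 adult males of strain B6CASTF1/J, aged 8 to 10 months, an F1 of B6 and Cast with no other allele, treatment or transgene named in the labels. Ribosomal RNA was reduced and ERCC spike-ins were added to 300 ng of total RNA, and stranded libraries were sequenced. The libraries form 1 group, so no conditions were compared. Replicate 1 is animal 2 and replicate 2 is animal 4. Both have the same donor identifier, and only these animal numbers tell the animals apart. Every ± below is an SD with n = 2, and no p-value is given.

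In clathrin-mediated endocytosis, heavy and light chains assemble into a lattice on the plasma membrane, and adaptors such as AP2 and Picalm tie that lattice to lipids and cargo. Amphiphysins bend the neck of the pit and bring in dynamin, a GTPase that cuts the vesicle free, and synaptojanin then removes phosphates from the inositol lipids so that the coat can come off. Nerve terminals use this route to recover synaptic vesicle membrane after release. Several of these proteins exist as a form found in most tissues and as a form made mainly by neurons, either from separate genes (Dnm2 and Dnm1, Picalm and Snap91) or by alternative splicing of 1 gene (Clta, Cltb, Bin1, Synj1).

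On mm10, the clathrin genes lie at chr4:44004452-44032846 (Clta, plus strand), chr13:54592401-54611344 (Cltb, minus) and chr11:86694351-86757565 (Cltc, minus). The dynamins lie at chr2:32308471-32353338 (Dnm1, minus), chr9:21424908-21507759 (Dnm2, plus) and chr1:161982453-162478034 (Dnm3, minus). Amph lies at chr13:18948205-19150921 (plus), Synj1 at chr16:90936092-91011308 (minus) and Picalm at chr7:90130213-90213465 (plus).

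The sequences that separate such forms are shown here, since the results below turn on how often they were included. They are exons of the GENCODE M21 annotation on mm10, written 5′ to 3′ on the strand of the gene. The light chain genes each have a 54-base insert. Those are Clta insert 1 (chr4:44030215-44030268, plus strand) and the Cltb insert (chr13:54597026-54597079, minus strand). Clta has a further insert of 36 bases, Clta insert 2 (chr4:44031400-44031435, plus strand). Capitals mark the 37 of 54 bases (68.5%) that the 54-base inserts share at the same position; insert 2 has no counterpart here and is in lower case.
Clta insert 1: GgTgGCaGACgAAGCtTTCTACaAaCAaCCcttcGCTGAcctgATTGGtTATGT
Cltb insert: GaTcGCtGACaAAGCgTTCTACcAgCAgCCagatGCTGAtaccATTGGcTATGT
Clta insert 2: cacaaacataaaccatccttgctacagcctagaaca

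Dnm1 and Dnm2 each have a pair of 139-base exons, one after the other in the gene, and no coding transcript that spans them holds both. Dnm1-216 holds neither, but a 52-base version of the Dnm1 downstream exon, at 1.93% ± 0.262 in the first quantification and 11.2% ± 4.23 in the second, against the transcripts with the upstream exon. In Dnm1 the upstream exon is chr2:32334682-32334820 and the downstream exon chr2:32333066-32333204, both on the minus strand. In Dnm2 they are chr9:21478899-21479037 and chr9:21480407-21480545, both on the plus strand. Capitals mark the bases at which the exons of a pair differ. Within the pair, 100 of 139 bases (71.9%) were identical in Dnm1 and 95 of 139 (68.3%) in Dnm2. Between the genes, the upstream exons shared 110 of 139 bases (79.1%) and the downstream exons 101 (72.7%), so the Dnm1 upstream exon was closer to the Dnm2 upstream exon than to its own partner. The Dnm1 upstream and Dnm2 downstream exons also shared 101, and the Dnm1 downstream and Dnm2 upstream exons 93 (66.9%).
Dnm1 upstream exon: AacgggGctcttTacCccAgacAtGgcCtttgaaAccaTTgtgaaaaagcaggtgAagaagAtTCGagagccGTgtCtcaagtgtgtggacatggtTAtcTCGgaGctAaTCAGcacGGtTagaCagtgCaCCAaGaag
Dnm1 downstream exon: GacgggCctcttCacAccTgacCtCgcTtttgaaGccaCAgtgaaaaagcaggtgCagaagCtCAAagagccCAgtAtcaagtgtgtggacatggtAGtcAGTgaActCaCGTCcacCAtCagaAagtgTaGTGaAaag
Dnm2 upstream exon: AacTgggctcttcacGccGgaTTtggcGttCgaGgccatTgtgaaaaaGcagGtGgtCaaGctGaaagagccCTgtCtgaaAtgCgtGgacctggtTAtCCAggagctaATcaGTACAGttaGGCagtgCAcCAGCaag
Dnm2 downstream exon: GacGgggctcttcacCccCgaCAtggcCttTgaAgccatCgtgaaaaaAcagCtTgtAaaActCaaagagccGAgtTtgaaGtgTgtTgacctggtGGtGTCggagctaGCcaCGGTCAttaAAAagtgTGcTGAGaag

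Short exons are also shown for the dynamins, at 12 bases each, and for Synj1. The Dnm1 exon lies at chr2:32323179-32323190 (minus strand), the Dnm2 exon at chr9:21490658-21490669 (plus strand) and the Dnm3 exon at chr1:162045386-162045397 (minus strand). The Synj1 exon of 24 bases (chr16:90940473-90940496, minus strand) is shown because the transcripts that hold it end their coding sequence there. Capitals mark its in-frame stop codon, which separates the short-tailed from the long-tailed protein.
Dnm1 12-base exon: gatgagattctg
Dnm2 12-base exon 2: ggggagatcttg
Dnm3 12-base exon: ggaaagagaaag
Synj1 tail exon: caggagcaaccaacagggTAAcag

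The libraries held 26925514 and 30143684 expected counts, and the 10 genes between 1064 (Dnm2, replicate 1) and 27302 (Dnm1, replicate 2) each. Lists of neuron, astrocyte, oligodendrocyte, microglia and endothelial markers were detected at 1 TPM or more for 8 of 8 genes each, and the neuron list summed to 3778 and 4017 TPM. Markers of adjoining tissue were uneven: the choroid plexus list summed to 744 and 5.73 TPM, with 5 of its 5 members at 50 normalised counts at least 2-fold higher in replicate 1, and the striated muscle list to 12.2 and 37.9 TPM, with 6 of 6 at least 2-fold higher in replicate 2. Of the choroid plexus list, 1 gene (Kcne2) was at 0 in replicate 2. The part of such tissue in the values below was not tested. In whole tissue, fewer cells of a type and less RNA per cell cannot be told apart.

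All 10 genes were above 1 TPM in both libraries, against 27.1% of all genes, and dynamins stood at both ends of their order. TPM is a level per transcript, corrected for length, and can be compared between genes. Dnm1, the dynamin of nerve terminals, stood highest at 487.9 TPM in replicate 1 and 518.1 in replicate 2, or 503 ± 21.3, and ranked 107th of all genes by mean TPM. The heavy chain Cltc, which builds the legs of the clathrin triskelion, followed at 249 and 252.6 TPM (251 ± 2.53). Its rank was 285. Synj1, which empties the coat's lipid anchor, stood at 160.8 and 159 TPM (160 ± 1.30).

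The light chains, which sit along the heavy chain and bind regulators, had nearly the same level. Clta was at 117.5 and 126.1 TPM (122 ± 6.07). Cltb was at 117.5 and 124.4 TPM (121 ± 4.94). These were the only neighbours in the order whose means differed by less than the larger of their SDs. Bin1, the amphiphysin made in many tissues, stood at 104.8 and 114.2 TPM (109 ± 6.65). Amph, its nerve-terminal relative, lay lower at 86.2 and 89.3 TPM (87.7 ± 2.18). Picalm, the widely expressed adaptor that sorts synaptobrevin-type cargo, stood at 68.3 and 67.4 TPM (67.9 ± 0.643). Dnm3, a dynamin of brain and few other tissues, had 48.5 and 53.5 TPM (51.0 ± 3.55). Dnm2, the dynamin of nearly all cell types, was lowest at 27.4 and 27.3 TPM (27.3 ± 0.106), at rank 4542. The order was the same in both animals.

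A second deposited quantification gave the same order except among Clta, Cltb and Bin1. Its TPM for all 10 was higher in replicate 2, as for Clta at 106 and 165, so levels were compared after both quantifications were rescaled to the same sum of 1000000 over protein-coding genes. On that scale Synj1 stood at 320 ± 8.77 in the first quantification and 242 ± 14.5 in the second, the widest gap among the 10 as a ratio. Dnm1 stood at 1008 ± 23.3 and 880 ± 59.5, and Dnm2 at 54.8 ± 1.27 and 52.9 ± 2.47. In the second quantification Clta stood at 239 ± 15.4, and its mean differed from that of Synj1 by less than either SD.

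**Figure D1:**
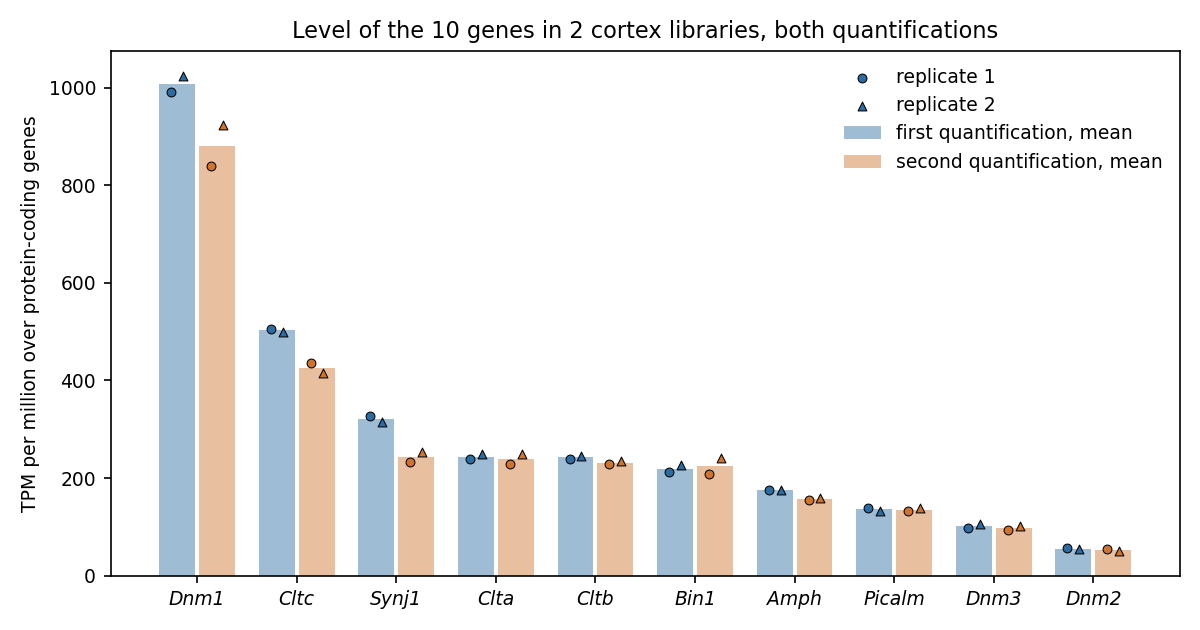
Levels of the 10 genes, as TPM rescaled to a sum of 1000000 over protein-coding genes, on a linear axis from 0. Bars are means of 2 animals and points the animals, in blue for the first and orange for the second quantification; Dnm1 is highest and Dnm2 lowest in both, and Synj1 is lower in the second.

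Within families, the neuronal dynamin far outweighed the others, while light chains and amphiphysins were nearly balanced. Dnm1 took 86.5% of dynamin TPM in each library (86.5% ± 0.0184), Dnm3 took 8.60% and 8.93% (8.77% ± 0.237), and Dnm2 4.86% and 4.55% (4.71% ± 0.219). Clta made up 50.01% and 50.3% of light chain TPM (50.2% ± 0.227). Amph made up 45.1% and 43.9% of the sum of Amph and Bin1 (44.5% ± 0.887).

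Set against the heavy chain, light chain TPM came to a ratio of 0.944 in replicate 1 and 0.992 in replicate 2 (0.968 ± 0.0341). The second quantification gave 1.11 ± 0.0865. The ratio is per transcript and not per read, since by expected counts the short light chain messages came to only 0.215 of Cltc. By counts Dnm3, whose main transcript is 7523 bases long, came to 17.97% of the dynamins. Picalm stood at 0.371 ± 0.00639 of the level of Snap91, the neuronal adaptor of the same family. Synj1 was 3.37 ± 0.463 times the level of Synj2, its relative of wider distribution, with ratios of 3.04 and 3.70 in the 2 animals. That ratio depended on the measure: it was 2.76 ± 0.610 by the second quantification, 4.01 ± 0.635 by expected counts and 4.73 ± 0.547 over protein-coding transcripts alone.

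The 10 genes differed little between the animals. Counts were scaled by TMM (trimmed mean of M-values), which adjusts library sizes by a trimmed mean of the genes' log ratios between libraries. Log2 ratios of replicate 1 over replicate 2 ran from -0.06 for Bin1 to 0.06 for Dnm2. No member was at least 2-fold apart, where 0.854% of 14167 genes averaging 50 or more normalised counts were. With a limit of 25%, the larger value over the smaller, it was again 0 of 10, against 13.1% of all genes. The median size of the difference was 1.01-fold over the members and 1.08-fold over all genes. Counts of the 10 started at 1064 and those of the other genes at 50, and nothing particular to the 10 is read from this. Dnm2, the least counted, had 1064 and 1146 counts and a 95% binomial interval of its log2 ratio from -0.06 to 0.19. Bin1 had 4038 and 4730 counts and an interval from -0.12 to 0.00. All 10 intervals, which cover counting error only, held 0.

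**Figure D2:**
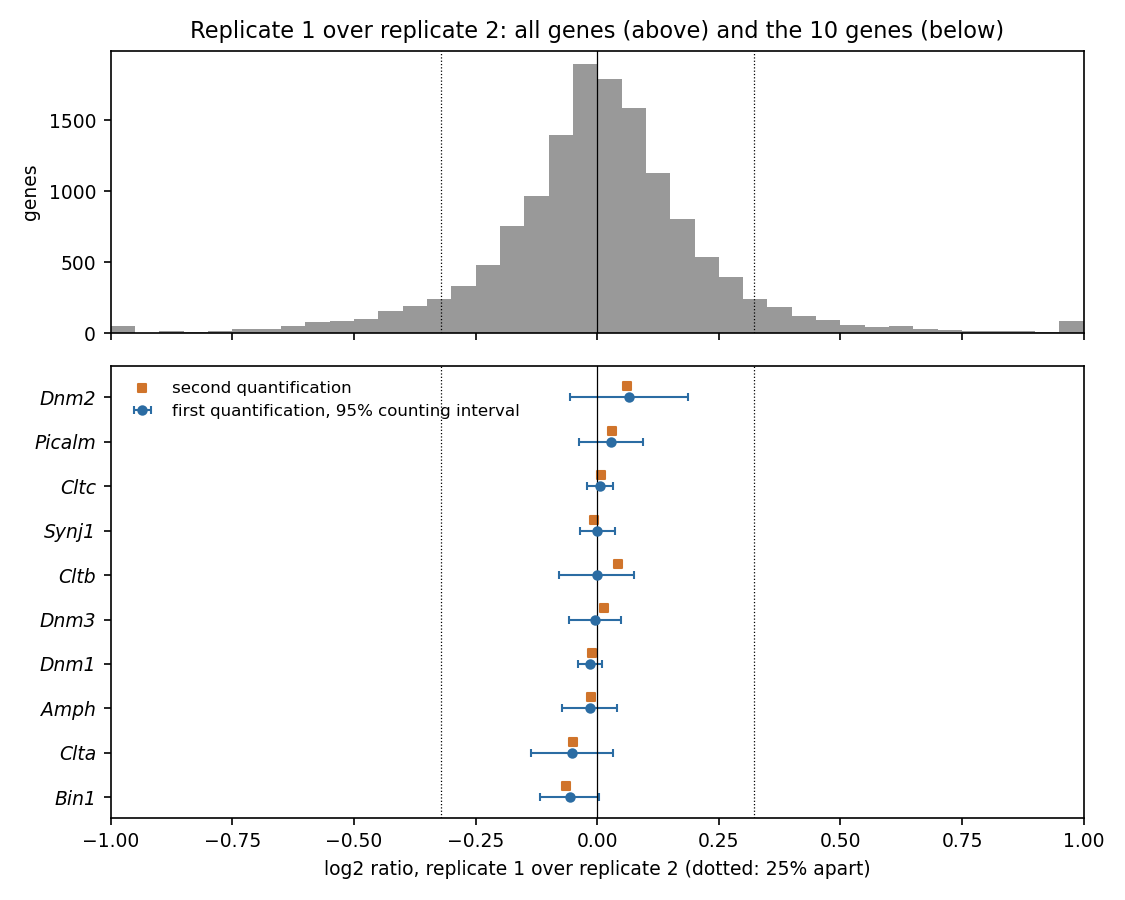
Log2 ratio of replicate 1 over replicate 2 for 14167 genes (upper panel, counts of genes; the outermost bars also hold the genes beyond the axis) and for the 10 genes (lower panel, with exact 95% binomial intervals of the counts). Dotted lines mark values 25% apart; the 10 genes lie between -0.06 and 0.06, with the second quantification in orange.

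Inclusion of an exon was taken as the TPM of the coding transcripts that hold it over the TPM of those plus the coding transcripts that span and skip it. Coding transcripts with an overlapping version of the exon were left out of both. The 21-base Synj1 exon (Synj1-206) was thus set against Synj1-203 only. The 52-base Dnm1 exon was set only against transcripts with the upstream exon. Neither share is one of all spanning transcripts. These shares come from the authors' division of reads among annotated transcripts and not from junction reads, which were not analysed here. The annotation gave 31 such optional coding exons in 9 of the 10 genes, none of them in Amph. Of the 31, 24 are a multiple of 3 bases long, and 10 are 27 bases or shorter. Shares in the 2 animals lay within 5 percentage points of each other for 23 exons. The 2 quantifications lay within 10 points for 25, and put 29 on the same side of 50%. The 31 are not separate events, so these counts take some events more than once. Bin1 exons of 108, 24 and 108 bases have identical shares, and the 139-base exons of a pair mirror each other or nearly so. Dnm1 and Synj1 each have overlapping versions of an exon, and a Dnm2 exon was at 0 throughout.

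Most light chain messages carried the inserts known from neurons. In Clta, 90.3% of TPM held insert 1 in both animals (90.3% ± 0.0102), and 82.2% and 80.7% held insert 2 (81.5% ± 1.09). The Clta-205 transcript, with both inserts and 248 encoded residues, took 77.3% and 75.5% of the gene (76.4% ± 1.26). Insert 1 alone (Clta-204, 236 residues) took 13.0% and 14.8% and insert 2 alone (Clta-203, 230 residues) 5.06% ± 0.171. Transcripts with neither insert, as in the ubiquitous form, took 4.63% ± 0.161, all of it Clta-201 (216 residues). Clta-202 and Clta-206 (218 residues each), which also lack both inserts, were at 0 in both libraries.

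The form with both inserts also led the second quantification, with a lower share. That gave 61.3% ± 1.55 for both inserts, 17.1% ± 0.886 for insert 2 alone and 10.2% ± 1.83 for neither, with Clta-202 at 7.65% ± 2.00. Insert 1 thereby stood at 72.8% ± 0.940 and insert 2 at 78.3% ± 2.43. In Cltb, the insert was held by 77.4% and 78.9% (78.1% ± 1.01), and by 76.3% ± 4.49 in the second quantification. Cltb-201, with the insert, encodes 229 residues and Cltb-202, without it, 211. Cltb-202 is the longer RNA, with 2186 bases against 1004, and by expected counts the insert share was 60.8% ± 1.41.

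The heavy chain had no transcript that led in both quantifications. Cltc-202 took 75.8% and 75.2% of the gene in the first quantification, where Cltc-201 took 0% and 1.96%. In the second, Cltc-201 led with 49.9% and 54.6%, and Cltc-202 had 29.5% and 29.6%. These transcripts have 29 of 32 exons in common, and in coding sequence differ by a 12-base extension of 1 exon, so that they encode 1675 and 1679 residues. The extension was thus held by 1.27% ± 1.80 or 63.8% ± 1.37 of the pair, and its use in cortex cannot be given from these tables. A 21-base exon near the end of Cltc (chr11:86701061-86701081) was listed at 20.3% ± 0.211 and, in the second quantification, at 15.2% and 13.4%. Only an 898-base fragment, Cltc-203, holds it, and by expected counts its share was 3.08% ± 0.0357.

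Picalm, which binds both lipids and clathrin, had 15 annotated transcripts and no settled main form. Picalm-201 (655 residues) led the first quantification with 35.2% and 48.5%, and Picalm-212 (605 residues) the second with 25.4% and 23.0%. A 150-base exon (chr7:90182219-90182368) was included at 60.0% and 63.8% (61.9% ± 2.70), and at 53.1% ± 0.683 in the second quantification. A 24-base exon (chr7:90194273-90194296) varied more, with 69.7% and 84.5% in the first and 48.4% and 62.0% in the second quantification. It was higher in replicate 2 by both. Picalm-209, whose coding sequence ends in a 102-base exon of its own and which the annotation marks as incomplete, held 11.9% ± 0.113 of the gene.

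Other Picalm transcripts above a share of 10% in either quantification were Picalm-213 (10.9% and 0.63% in the first, 18.7% and 6.01% in the second), Picalm-202 (0% in the first, 10.6% ± 0.871 in the second) and Picalm-208, a processed transcript without coding sequence (6.14% ± 4.24 and 12.1% ± 0.0779). Picalm-213 was higher in replicate 1 by both quantifications.

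In the dynamins, the 139-base pair was used unequally in Dnm1 and more evenly in Dnm2. Dnm1 held the downstream exon in 75.9% and 78.1% of TPM (77.0% ± 1.55) and the upstream exon in 24.01% and 21.8% (22.9% ± 1.55). The second quantification gave 73.2% ± 2.64 and 26.0% ± 2.83. Dnm2 held the upstream exon in 52.5% and 45.4% (48.9% ± 5.01) and the downstream exon in 47.5% and 54.6% (51.1% ± 5.01), and the upstream exon in 51.1% and 49.0% by the second quantification. Over coding transcripts, the more frequent Dnm2 exon thus changed from animal to animal. With noncoding Dnm2 transcripts added, the downstream exon led in both, at 57.5% and 61.6%. Dnm2 shares rest on 815 and 861 counts in transcripts that span the pair, and the Dnm1 transcripts with the downstream exon alone had 16390 and 19011.

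The 12-base exons were mostly included. In Dnm1 the share was 95.3% ± 0.909 (96.4% ± 0.791 in the second quantification), in Dnm3 79.6% ± 1.74 (71.1% ± 2.85) and in Dnm2 65.0% ± 2.12 (77.0% ± 2.94). Another 12-base exon of Dnm2 had no counts in either library, and a 30-base exon of Dnm2 was held by 6.16% ± 0.615 (12.5% and 15.5% in the second quantification). That 30-base exon is held only by Dnm2-208, an incomplete 744-base fragment, and its share by expected counts was 1.26% ± 0.124. The tail of dynamin, rich in proline, is where amphiphysins and other SH3 proteins bind. In Dnm1 the short tail (851 residues in Dnm1-201) took 66.6% and 70.2% of TPM (68.4% ± 2.54). The 2 other coding ends, with 864 residues in Dnm1-214 and Dnm1-202, took 26.9% ± 3.45 and 4.69% ± 0.904. By the second quantification the short tail stood at 55.4% and 74.6%, so the animals were further apart there.

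Dnm1-201, with the downstream exon and the short tail, led Dnm1 in both libraries and both quantifications with 46.9% and 48.2% (36.7% and 48.2% in the second). Next in the first quantification were Dnm1-214 (12.1% ± 1.32, but 18.5% and 2.62% in the second), Dnm1-205 (9.25% ± 1.83, and 15.4% and 12.6% in the second) and the retained-intron RNA Dnm1-211 (7.93% ± 0.396, and 10.0% ± 2.46). In Dnm3, Dnm3-202 (863 residues, with the 12-base exon) took 74.1% and 68.0% and Dnm3-201 (859 residues, without it) 14.1% and 14.7%. Both quantifications ranked these Dnm3 forms alike.

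By TPM, much of Dnm2 was listed in noncoding forms, but most of its expected counts lay in coding transcripts. Coding transcripts, incomplete ones included, held 815 of 1064 counts in replicate 1 and 861 of 1146 in replicate 2. Complete coding transcripts made up 50.5% and 48.9% of Dnm2 TPM (49.7% ± 1.15). Retained-intron RNAs made up 23.2% ± 0.814 and processed transcripts without a coding sequence 16.0% ± 4.28. No form passed 20% in the first quantification: Dnm2-202 had 18.6% ± 1.44, the retained-intron RNA Dnm2-210 15.1% ± 4.86, Dnm2-201 14.1% ± 4.30 and the processed transcript Dnm2-205 11.0% ± 2.19. The second quantification put Dnm2-201 first in replicate 1 (18.8%) and Dnm2-204 first in replicate 2 (18.3%). Tmed1, on the opposite strand, overlaps 207 bases of Dnm2 exons and stood at 7.09 ± 0.212 TPM. Whether reads were counted by strand is not given in the sources used here.

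Among the amphiphysins, Bin1 showed the long brain form, which carries a clathrin- and AP2-binding region that shorter forms lack. Bin1-201 (588 residues) led with 59.3% and 57.8% of the gene (58.5% ± 1.06), and with 52.1% ± 4.33 in the second quantification. It alone holds the 93-base exon of the BAR region, at 67.3% ± 1.62 inclusion (58.6% ± 5.33). Of the exons that encode the binding region, the one of 129 bases was included at 76.2% and 70.2% (73.2% ± 4.29, and 72.8% ± 1.80 in the second quantification). The next exons, of 108, 24 and 108 bases, go together in the annotation and were included at 67.7% ± 1.10 (63.8% ± 1.56).

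Bin1 transcripts without any exon of that region also had sizeable shares. Bin1-205 (410 residues) took 13.7% and 21.1%, and 8.89% ± 3.20 in the second quantification. Bin1-206 (434 residues) took 6.88% and 4.66%, and 13.3% ± 3.03 in the second, so the order of these Bin1 forms was reversed there. Bin1-204, a retained-intron RNA, had 13.0% ± 0.509. Of the 31-base windows of Bin1-201, 8.67% also occur in A830052D11Rik, an antisense RNA with 20 and 26 counts, far fewer than the counts of Bin1. Dnm3 shares 4.34% with Gm10176, which had 0 counts, and no other member shared over 0.380% with another gene.

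Amph could not be resolved into forms in the same way. Amph-201 (686 residues) led everywhere, with 39.6% and 44.0%, and 43.0% and 52.5% in the second quantification. Amph-204 (690 residues, with a 12-base extension of 1 exon) had 23.2% and 37.9%, but 17.4% and 5.68% in the second quantification, so that the animals differed in opposite directions. The processed transcript Amph-205 had 35.7% and 16.5%, and 38.0% and 39.7% in the second. The 2 animals thus looked different in Amph-205 by the first quantification and alike by the second.

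Synj1 is known for a short-tailed protein abundant in nerve terminals and a long-tailed one of wider distribution, which adds binding sites for other endocytic proteins. The long tail (Synj1-203, 1607 residues) took 18.4% and 26.6% of the transcripts with a known end (22.5% ± 5.82), and 16.6% and 36.05% in the second quantification (26.3% ± 13.7). The short tail (1309 residues in the complete form Synj1-210) took 81.6% and 73.4% (77.5% ± 5.82), and 83.4% and 64.0% in the second. The long form was higher in replicate 2 by both quantifications, and the short form was the main one in both animals. The tail exon shown above was included at 75.5% ± 5.73.

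The full-length Synj1 messages were divided very differently. Transcripts with an incomplete end in the annotation held 81.4% ± 6.48 of Synj1 TPM in the first quantification and 23.7% ± 1.49 in the second. Synj1-202, which is marked incomplete, led the first with 32.6% and 30.4% and was near 0 in the second. Synj1-210 had 0.72% and 0% in the first and led the second with 56.3% and 36.9%. Of their 33 exons 32 are identical, and they differ in the first exon only. Further fragments of Synj1 with a share above 10% in the first quantification were Synj1-207 (17.6% ± 2.74), Synj1-208 (14.3% ± 0.0354) and Synj1-212 (10.9% ± 1.23), and in the second Synj1-206 (11.7% ± 1.12). A 48-base exon of Synj1 (chr16:90948066-90948113) differed most between quantifications of all 31, at 63.5% ± 1.56 and 90.7% ± 1.61. The transcripts that skip it (Synj1-204, Synj1-208 and Synj1-212) are all marked incomplete. By expected counts of the first quantification its share was 85.1% ± 0.639.

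**Figure D3:**
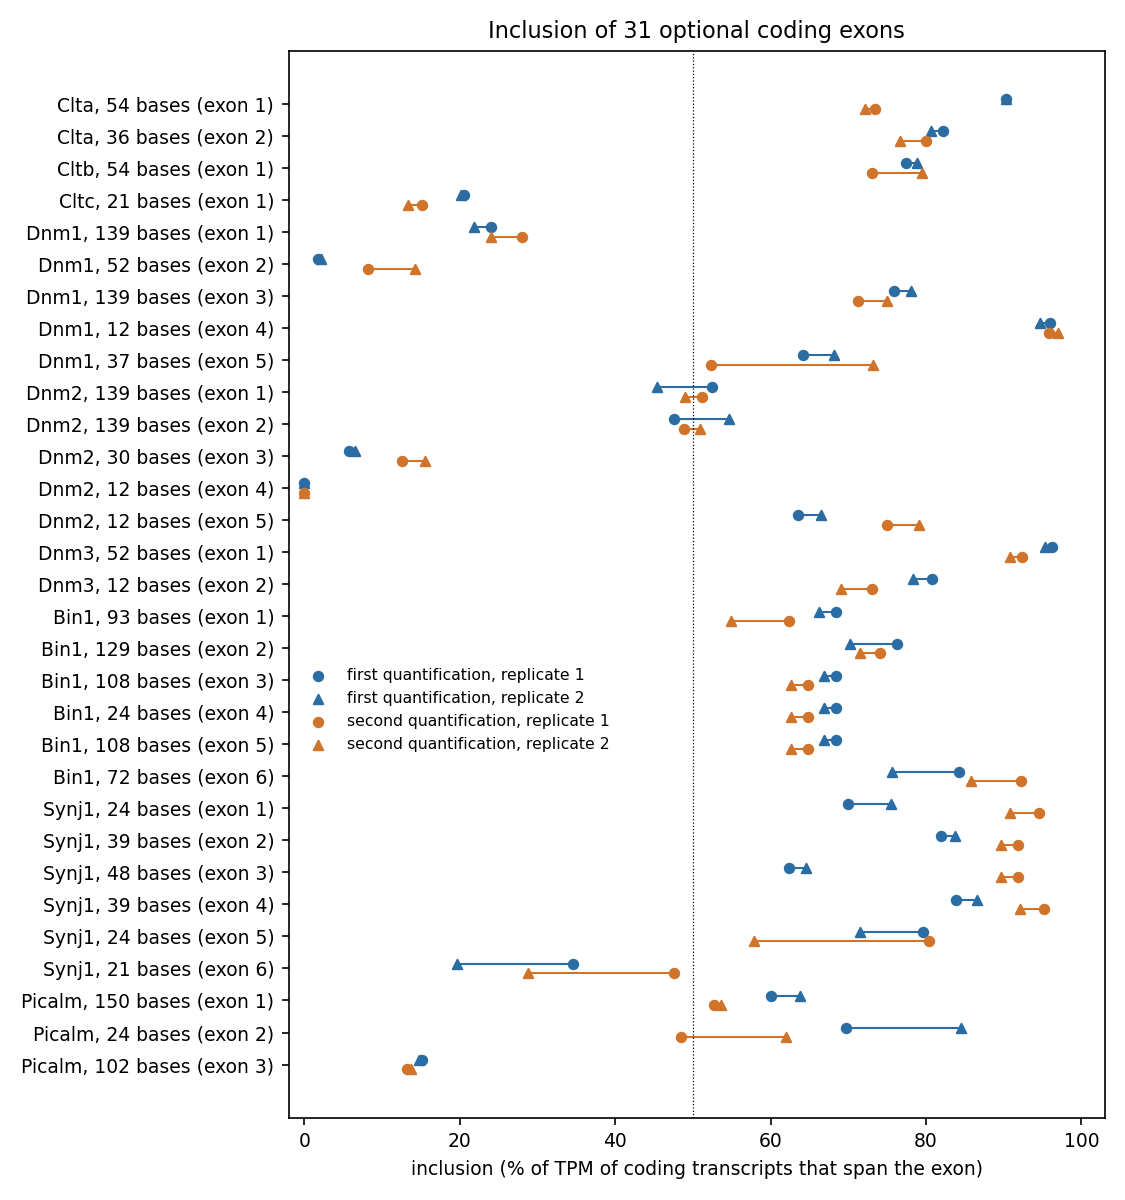
Inclusion of each of the 31 optional coding exons, in percent, by gene and length in bases; circles are replicate 1 and triangles replicate 2, blue the first and orange the second quantification, and the dotted line is 50%. Clta, Cltb and Bin1 inserts lie above 50%, the Dnm2 pair close to it, and the gap between colours is widest for the 48-base Synj1 exon. Coding transcripts with an overlapping version of an exon are left out of its share.

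The same transcript led in both libraries and both quantifications for 6 of the 10 genes (Clta, Cltb, Dnm1, Dnm3, Amph and Bin1), against 66.7% of the 11974 genes with several annotated transcripts and 62.2% of those with as many transcripts as these. Within the first quantification the leader was the same in both animals for 10 of 10 (86% of all genes), and within the second for 9 of 10 (80.4%), Dnm2 being the exception. Cltc, Synj1, Picalm and Dnm2 changed leader between quantifications. By kind of transcript, complete coding RNA made up 96.3% ± 0.431 of Cltb, 89.3% ± 3.47 of Dnm3, 86.5% ± 0.167 of Bin1 and 80.2% ± 1.30 of Dnm1. All 6 annotated Clta transcripts are complete coding, so its share was fixed by the annotation.

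**Figure D4:**
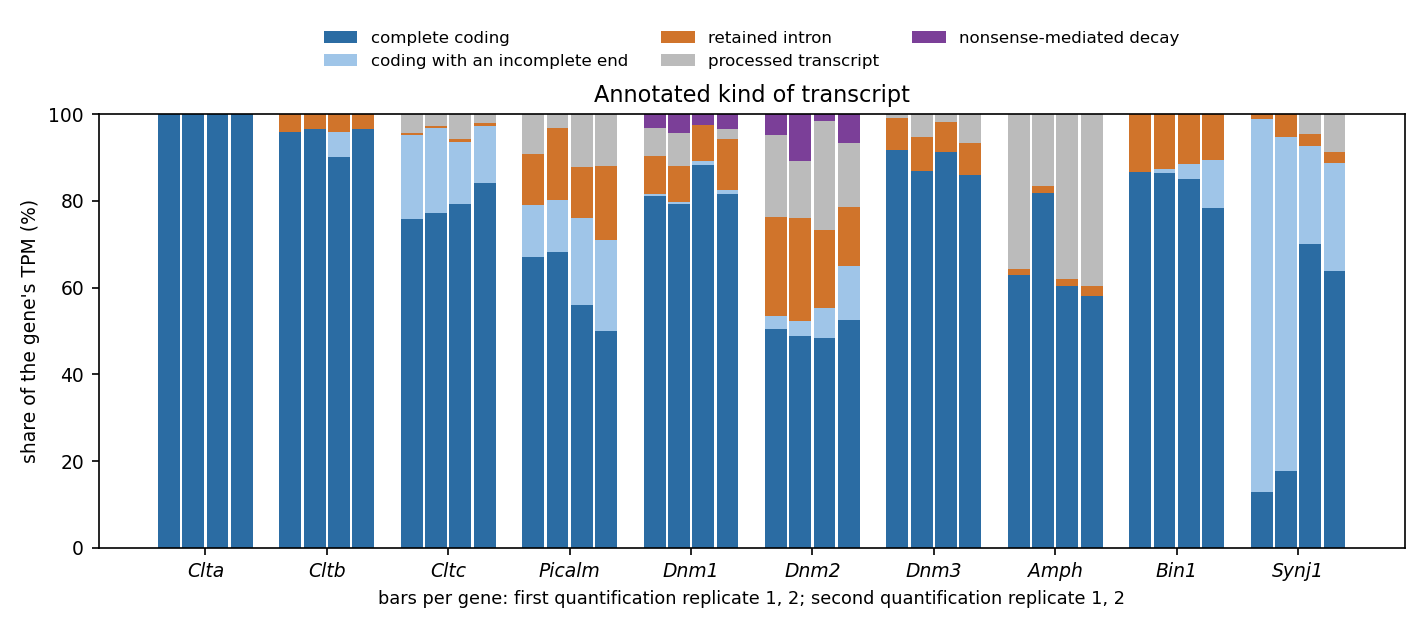
Share of each gene's TPM in annotated kinds of transcript, in percent, with 4 bars per gene: the first quantification in replicates 1 and 2, then the second. Clta has only complete coding transcripts in the annotation, Dnm2 is about evenly split, and the Synj1 bars differ between quantifications (81.4% against 23.7% in transcripts with an incomplete end).

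The rest of the machinery was present as well. Of 73 other genes in 8 lists, 71 had at least 1 TPM in both libraries, against 27.1% of all genes. The median of the 73 was 46.5 ± 0.177 TPM, against 9.30 ± 0.141 for the 18214 genes averaging 10 or more normalised counts. The 10 members had a median of 115 ± 5.79. None of the 72 counted at 50 or more was 2-fold apart between the animals, against 0.854% of the 14167 genes so counted. With the limit at 25%, 3 were higher in replicate 1 (Hspa8, Synj2 and Epn3) and 1 in replicate 2 (Bin2). Of all such genes, 13.1% were past that limit in either direction. Epn3 had 59 and 50 counts and Bin2 51 and 96, near the floor of 50.

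AP2, which links clathrin to cargo and lipid, is the complex on which Cltc and Picalm assemble. Its 5 subunit genes ran from Ap2m1 at 375 ± 24.5 TPM, Ap2a1 at 147 ± 7.79 and Ap2b1 at 132 ± 2.21 to Ap2a2 at 92.4 ± 2.67. Of 18 pit initiation and cargo adaptors, the membrane-bending epsin Epn1 (187 ± 7.35), the Picalm relative Snap91 (183 ± 1.42) and Sgip1 (132 ± 16.7) were highest, and Epn3 was lowest at 0.910 ± 0.0566. Among 13 BAR and SH3 proteins, which like Amph and Bin1 curve membranes or bind dynamin, Pacsin1 (174 ± 0.806), the endophilin Sh3gl2 (115 ± 8.32) and Fnbp1 (52.6 ± 4.38) led, and Bin2 was lowest with 1.67 and 3.44 TPM.

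Uncoating follows the step of Synj1. The chaperone Hspa8, which pulls the lattice apart, had 1031 and 782 TPM, the neuronal auxilin Dnajc6, which recruits it, 155 ± 5.76, and Gak, the auxilin of other tissues, 43.4 ± 1.94. Of 7 phosphoinositide enzymes, Pip5k1c, which makes the lipid that Synj1 removes, stood at 169 ± 1.32, Inpp5f at 49.9 ± 0.509, Synj2 at 52.8 and 43.0, and Pip5k1b lowest at 11.4 ± 0.948. Among 9 kinase and phosphatase genes, the calcineurin subunits Ppp3ca (422 ± 27.2) and Ppp3r1 (338 ± 13.0), which dephosphorylate dynamin and synaptojanin on calcium entry, and the AP2 kinase Aak1 (192 ± 1.53) were highest, and Bmp2k was lowest (6.39 ± 0.615).

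Lists of other coat adaptors and of dynamin relatives had medians of 39.8 ± 1.24 and 50.1 ± 4.10 TPM. Among the AP1, AP3 and GGA adaptors, which bind clathrin on internal membranes, Ap1s1 (169 ± 11.9), Ap1b1 (71.0 ± 1.91) and the neuronal Ap3b2 (66.8 ± 2.59) were highest and Gga2 lowest (13.6 and 16.3). Of 6 dynamin-superfamily GTPases that act on mitochondria or in antiviral defence, Mfn2 (99.3 ± 7.23), Dnm1l (91.4 ± 1.40) and Opa1 (52.6 ± 4.36) were highest. These 3 lay below Dnm1 and above Dnm2, and the antiviral Mx1 was lowest at 0.43 and 0.79 TPM.

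**Figure D5:**
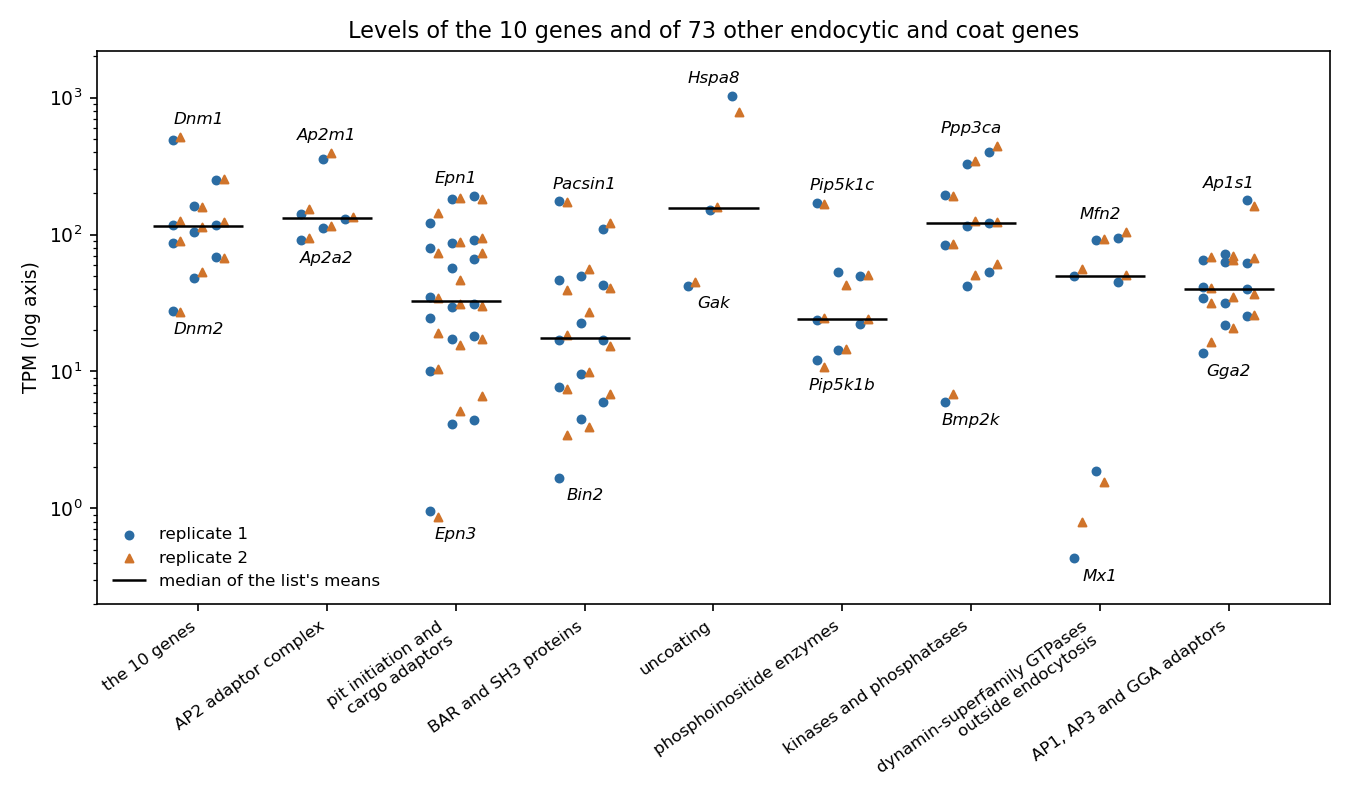
TPM on a log axis of the 10 genes and of 73 other genes by role, circles for replicate 1 and triangles for replicate 2, with the median of each list as a line and the highest and lowest gene of each named. Hspa8 (1031 and 782 TPM) is the highest gene and Mx1 (0.43 and 0.79) the lowest.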

How the data were processed

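Each library has expected counts and TPM per gene and per transcript as deposited by the authors, with the percent of its gene that a transcript takes, per the file headers, on mm10 with GENCODE M21. A second table of estimated counts and TPM was made from the reads, per the notes deposited with the files. The sources used here do not give programs, settings or use of strand. Deposited expected counts were rounded, and library sizes without ribosomal RNA genes, tRNA entries or spike-ins were 24688669 and 27440152. Log2 ratios used edgeR 4.0.16 (TMM, prior count 2), with genes of at least 50 normalised counts. With 2 animals no test was possible.

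Exon inclusion was summed from transcript TPM, and sequences were read from the annotation's transcripts. Shared sequence was sought in 31-base windows. Counting intervals are exact 95% binomial intervals. The ratios were tested on simulated data. The genes and lists were chosen with earlier results of these data known. Named were the 10 genes, the 3 highest and the lowest of each list, any gene past 2-fold, and transcripts with a share of at least 10%; genes over 25% apart were named after their values were seen. Alternatives were size factors of DESeq2 1.42.0, scaling to the spike-ins, TPM ratios (pseudocount 0.1), a prior of 0.5, other filters, counts, all or only coding transcripts, the second quantification and each animal alone. Its rescaling over protein-coding genes was chosen after seeing the data. Software was Python 3.11.15 (matplotlib 3.10.9, scipy 1.17.1, numpy 2.4.6, pandas 2.3.3) and R 4.3.3.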

Additional observations from a re-analysis of the deposited data

How the results depend on the processing

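With 1 group of 2 animals nothing was tested, and leaving out an animal gives the other's value. No paired analysis was possible because the study has 1 group. The count of members at least 2-fold or 25% apart stayed at 0 under every scaling, filter, prior and quantification tried; spike-in scaling moved the median log2 ratio of the 10 from 0.00 to 0.06, and TPM ratios moved it to -0.07. The same transcript led for 6 genes, for 10 in the first quantification alone. Family shares kept their order except for Amph, which by expected counts took 53.5% of the amphiphysin sum, and Clta, which took 45.6% of light chains. The second quantification gave 50.8% for Clta, 85.4% for Dnm1, 41.2% for Amph and a light over heavy chain ratio of 1.11. Expected counts gave 78.6% for Dnm1 and a ratio of 0.215. Protein-coding transcripts alone gave 51.1% for Clta, 87.1% for Dnm1 and 39.8% for Amph. Inclusion in the second quantification was 72.8% and 78.3% for Clta inserts 1 and 2, 76.3% for the Cltb insert, 73.2% for the Dnm1 downstream exon and 53.1% for the Picalm 150-base exon. By expected counts it was 90.7% for Clta insert 1, 60.8% for Cltb, 74.0% for Dnm1, 78.6% for the Bin1 129-base exon and 65.2% for Picalm. With all annotated transcripts, the Dnm2 upstream exon was at 40.4%, below the downstream exon in both animals. The cause of the differences between quantifications was not tested. Depth limits Dnm2 most, with 1064 and 1146 counts over 14 transcripts.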

Other observations

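Several members host small RNAs or antisense genes on the opposite strand. Dnm1 hosts Mir199b, Dnm2 Mir199a-1, and Dnm3 both Mir199a-2 and Mir214. All of these were listed at 0 counts in both cortex libraries, and their host genes had between 1064 and 27302. Dnm3os, the antisense RNA of Dnm3 that carries the latter pair, had 0 and 5 counts. A count of 0 allows up to 3 counts, for counting error only. Whether these libraries capture RNAs as short as microRNAs was not tested, so the 0 counts are not read as absence.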
